A study of Mus musculus with 68 samples.

Results

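The counts of 9 genes, Apoe, Gpx3, F13a1, Prr15, Slc6a12, Vit, Efemp1, Scara3 and Clu, were followed through the zones of the mouse growth plate. They are 9 of the 23420 gene symbols in the deposited table. They were chosen by their measured counts, because earlier readings of the same table found them higher in resting zone captures from mice at postnatal day 28 (P28). Contrasts with that zone at that age in ethanol sections are therefore a description: no p-value is given for a member, and nothing is read from the number of members past a threshold. P-values are given for other zones, for P2 and for differently fixed sections. Resting captures at P2 also stand in the contrast between ages, and whether the differently fixed sections took part in the choice is not stated. P-values that use either may thus not be independent of it.

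The growth plate is the cartilage disc that lengthens a bone. Its resting zone holds slowly dividing chondrocytes that feed the columns of the proliferative zone, and cells at the bottom of the columns enlarge into hypertrophic chondrocytes before bone replaces them. In mice a niche that renews these progenitors forms in the resting zone after birth, and the samples compare the zones at an age before and an age after that time. Of the 9 products, apolipoprotein E and clusterin are secreted lipid-binding proteins, and Gpx3 is the secreted glutathione peroxidase. F13a1 is the transglutaminase subunit of coagulation factor XIII. Efemp1 (fibulin 3) and Vit (vitrin) are extracellular matrix proteins, Scara3 is a class A scavenger receptor, Slc6a12 carries betaine and GABA, and Prr15 is a small proline-rich protein.

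Resting, proliferative and hypertrophic cells were cut by laser from 10 micron sections of snap-frozen bones of mixed-background mice, and SMART-seq2 libraries were made from the lysate. No genotype or agent separates the groups. Ethanol-fixed sections gave 9 resting, 8 proliferative and 8 hypertrophic libraries at P2 and 8, 9 and 9 at P28. One further animal at P3 gave 1 library per zone. Xylene-fixed sections of P28 mice gave 4, 5 and 5 libraries. Letters stand here for the animal names in the labels. Animal D at P2 and animal B at P28 have plural names and may each stand for more than 1 mouse. P28 animal D gave both ethanol and xylene libraries. Libraries with at least 100000 counts were summed per animal and zone, which left 4 animals per zone at P2, 3 per zone at P28 and 2 per zone after xylene. At P2 the zones do not share all animals: C gave only a hypertrophic sum, E only a proliferative sum and F only a resting sum. Zone fits have the animal as a block, so these animals add nothing to a zone contrast. Fitted changes between P2 zones thus rest on animals A, D and G. Both ages of the ethanol sums are in 1 fit with a shared estimate of spread. P-values for P2 zones therefore depend on the P28 animals too. P-values of fits on sums measure the spread between animals only. Those of fits on unsummed libraries, given for xylene, include the spread between libraries of the same animal.

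Totals ran from 748 to 3347722 counts per library, and the 3 symbols Rn45s, Lars2 and Glra2 took much of them. The P28 resting libraries that entered the fits held 73137 to 142839 counts outside those symbols, against 148004 to 2884454 in P2 resting libraries. All 9 chondrocyte markers had counts in the P28 resting zone, with 37945 counts of Col2a1, the main cartilage collagen, over 8 ethanol libraries. Against the P28 proliferative zone 2 of the 9, Hapln1 and Col11a1, were lower and 0 higher (edgeR, adjusted p under 0.05). Against the P28 hypertrophic zone 2, Hapln1 and Matn1, were lower and 0 higher. Of 14 macrophage genes, 9 were at 0 in the P28 resting zone, among them Csf1r, Cd68 and C1qa, and the 14 summed to 32 counts. Several libraries stood apart. Xylene hypertrophic library 3 held 188 counts of Col2a1 and 167940 of Col1a1, a bone collagen. P28 proliferative library 9 of animal D had 267 Xist and 0 Y-linked counts, unlike the Y-positive resting library of that animal, and P2 resting library 8 of animal G had both Xist (128) and Y-linked (747) counts. P28 resting library 1 of animal A held 1542 counts of Col10a1, a hypertrophic marker. Since tissue was captured in bulk, fewer cells of a type and less RNA per cell cannot be told apart.

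In GRCm38 (GENCODE M21) the genes lie apart except for one pair. Apoe is at chr7:19696109-19699188 on the minus strand, Gpx3 at chr11:54902453-54910377, F13a1 at chr13:36867178-37050244 on the minus strand, Prr15 at chr6:54325835-54330201 and Slc6a12 at chr6:121343076-121365775. Vit is at chr17:78508064-78627408 and Efemp1 at chr11:28853204-28926743. Scara3, at chr14:65919394-65953935 on the minus strand, and Clu, at chr14:65968483-65981547, are neighbours on opposite strands, 14547 bases apart with 0 protein-coding genes between them. SMART-seq2 reads carry no strand, so reads of F13a1 and its antisense genes Gm49144 and Gm30489, or of Prr15 and 9130019P16Rik, cannot be told apart, and the rRNA gene Gm22562 lies within Vit.

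RefSeq (GRCm38.p6) gave a promoter for 6 of the 9 genes. The 250 bases before the start site are shown for 3 genes whose zone patterns differed: Apoe, which followed the resting zone at both ages, F13a1, which followed the hypertrophic zone at P2, and Efemp1, which varied between animals. They lie at chr7:19699189-19699438 (minus strand), chr13:37050245-37050494 (minus strand) and chr11:28852955-28853204 (plus strand). Capitals mark matches on either strand to the GC box GGGCGG, the AP-1 motif TGANTCA, the Runx core TGTGGT or the TATA box TATAAA.
Apoe: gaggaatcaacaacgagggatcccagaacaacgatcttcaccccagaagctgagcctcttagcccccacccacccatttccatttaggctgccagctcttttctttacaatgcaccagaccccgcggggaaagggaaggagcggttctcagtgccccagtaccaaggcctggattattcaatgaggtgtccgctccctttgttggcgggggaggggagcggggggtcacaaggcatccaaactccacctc
F13a1: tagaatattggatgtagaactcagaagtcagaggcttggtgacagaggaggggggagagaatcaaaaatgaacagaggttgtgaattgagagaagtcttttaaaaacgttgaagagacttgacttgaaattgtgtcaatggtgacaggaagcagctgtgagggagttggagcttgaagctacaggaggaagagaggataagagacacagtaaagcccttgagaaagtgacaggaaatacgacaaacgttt
Efemp1: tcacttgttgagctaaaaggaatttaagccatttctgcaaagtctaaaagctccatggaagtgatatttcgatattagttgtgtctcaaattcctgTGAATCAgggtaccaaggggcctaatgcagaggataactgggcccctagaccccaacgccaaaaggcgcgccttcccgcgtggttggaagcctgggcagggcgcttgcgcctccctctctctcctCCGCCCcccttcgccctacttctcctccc
None of the 4 motifs matched in the Apoe and F13a1 windows. Efemp1 held 1 GC box, read on the minus strand as CCGCCC, and 1 AP-1 match. Over 27025 mouse promoters of this length, 32.9% held the GC box, 6.87% the AP-1 motif, 14.2% the Runx core and 12.97% the TATA box.

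The lipid-binding and scavenger genes are described first, in the sums by which they were chosen. In the P28 resting zone Apoe was at 593, 456 and 634 CPM (counts scaled to library size with TMM normalisation) in animals A, B and D. The same animals had 9.40, 24.9 and 17.3 CPM in the proliferative zone and 0, 40.6 and 0 in the hypertrophic zone. The resting values did not overlap with either other zone. Scara3 was at 212, 294 and 396 CPM in resting captures, at 0, 21.5 and 0 in proliferative ones and at 0, 234 and 2.47 in hypertrophic ones, where animal B overlapped with the resting range. Clu was at 21.2, 218 and 202 CPM in the resting zone and at 0, 1.13 and 0 in the proliferative zone. The hypertrophic sums had 16.1, 31.2 and 2.47 CPM of Clu, so only resting animals B and D stood above all of them. In the rule's own contrast, resting against proliferative at P28, the log2 changes were 5.33 ± 1.28 for Apoe, 8.28 ± 1.76 for Scara3, 8.12 ± 2.24 for Clu and 7.79 ± 2.01 for Efemp1 (± SE). The SE of a log2 change is approximate throughout: it was worked back from the change and its test statistic.

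The other members differed less between the resting and proliferative zones at P28. Gpx3 was at 333, 248.5 and 62.2 CPM in resting sums of animals A, B and D and at 49.4, 29.4 and 121 in proliferative sums, so the ranges overlapped. Vit was nearly as high in the proliferative zone (141, 120 and 134 CPM) as in the resting zone (106, 142 and 330 CPM), and lower in the hypertrophic zone (8.03, 9.36 and 34.5 CPM). Slc6a12 was at 26.5, 30.4 and 105 CPM in resting sums against 14.1, 7.92 and 38.9 in proliferative sums. Prr15 was at 476, 431 and 575 CPM in resting sums, 216, 130 and 315 in proliferative sums and 426, 559 and 254 in hypertrophic sums. In CPM only the proliferative zone thus lay apart from the resting zone. The counts were alike, at 90, 85 and 148 in resting sums of 1 library and 92, 115 and 146 in proliferative sums of 2 libraries. Prr15 counts did not grow with depth (below), and the part of depth in this difference was not tested. The fitted log2 changes of these members against the proliferative zone were 2.16 ± 1.21 (Gpx3), 0.31 ± 1.25 (Vit), 1.43 ± 1.71 (Slc6a12), 1.18 ± 0.83 (Prr15) and 3.78 ± 1.35 (F13a1). Adjusted p under 0.05 held for 3 members, Apoe, Scara3 and Efemp1, and for 0.561% of the 6958 genes tested. Since this contrast chose the genes, nothing is read from that count. The median change over all genes was -0.81, with 10 genes higher and 29 lower. With RLE size factors it was -0.24, with 12 higher and 6 lower, and all 9 members stayed above 0. Against the hypertrophic zone, which shares the resting sums, 1 member (Apoe, log2 change 6.23 ± 1.44) was past the threshold, beside 1.77% of genes, and nothing is read from this count either.

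**Figure D1:**
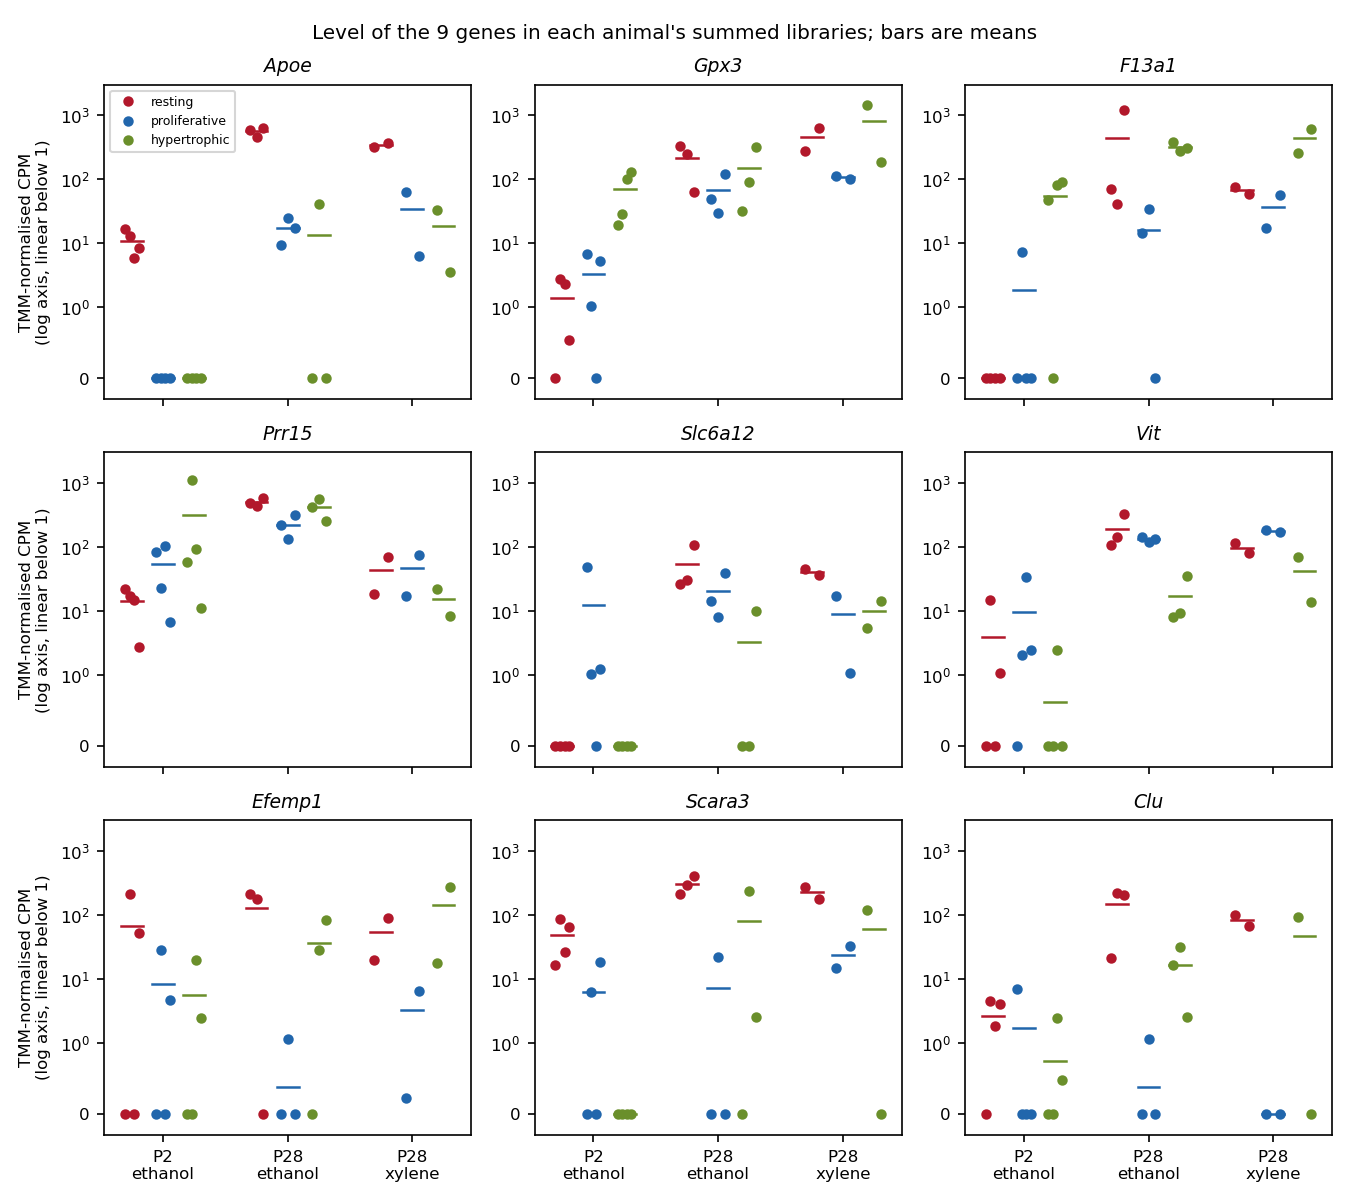
Normalised level (TMM CPM, log axis, linear below 1) of each gene in every animal's summed libraries, by zone, for P2 ethanol, P28 ethanol and P28 xylene sections; points are animals and bars are means. Apoe resting points lie above the other zones in all 3 sets, whereas the P28 ethanol ranges of Vit in the resting and proliferative zones overlap and F13a1 is present in hypertrophic captures at both ages.

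Whether these counts came from one animal was checked over all 8 ethanol P28 resting libraries, those below the count minimum included. No member came from 1 animal alone. Apoe had 209, 170, 38 and 163 counts in animals A, B, C and D, or 36.0%, 29.3%, 6.55% and 28.1%, beside 31.5%, 28.3%, 8.97% and 31.2% of the depth. Prr15 had 317, 175, 121 and 148 counts and Vit had 57, 36, 39 and 85, so all 4 animals contributed. Gpx3 had 96, 59, 67 and 16 counts, and animal D, with 31.2% of the depth, gave 6.72% of them.

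The remaining members were less evenly spread. F13a1 had 35, 8, 0 and 307 counts, so that animal D gave 87.7% of them, all in its single resting library. That library also had 177 counts of Beta-s, a haemoglobin gene, and 13 of the macrophage gene Mrc1, 1 each of Ptprc and Lyz2, and 0 of C1qa, C1qb, C1qc, Csf1r, Cd68 and Pf4. Whether other cells gave part of its F13a1 was not tested. Efemp1 had 48, 52, 0 and 0 counts, from animals A and B only. Clu had 9, 58, 0 and 52 counts, Slc6a12 had 13, 14, 0 and 27, and Scara3 had 102, 88, 1 and 102. Animal C, whose library held 41078 counts outside the 3 symbols, thus gave Apoe, Gpx3, Vit and Prr15 but at most 1 count of the other members.

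Repeat captures from the same animal were alike for Apoe. Libraries 1 and 2 of animal A had 112 and 97 counts of Apoe, and libraries 5 and 6 of animal B had 80 and 90. The shallow libraries 3 and 4 of animal A had 0 counts of Apoe.

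**Figure D2:**
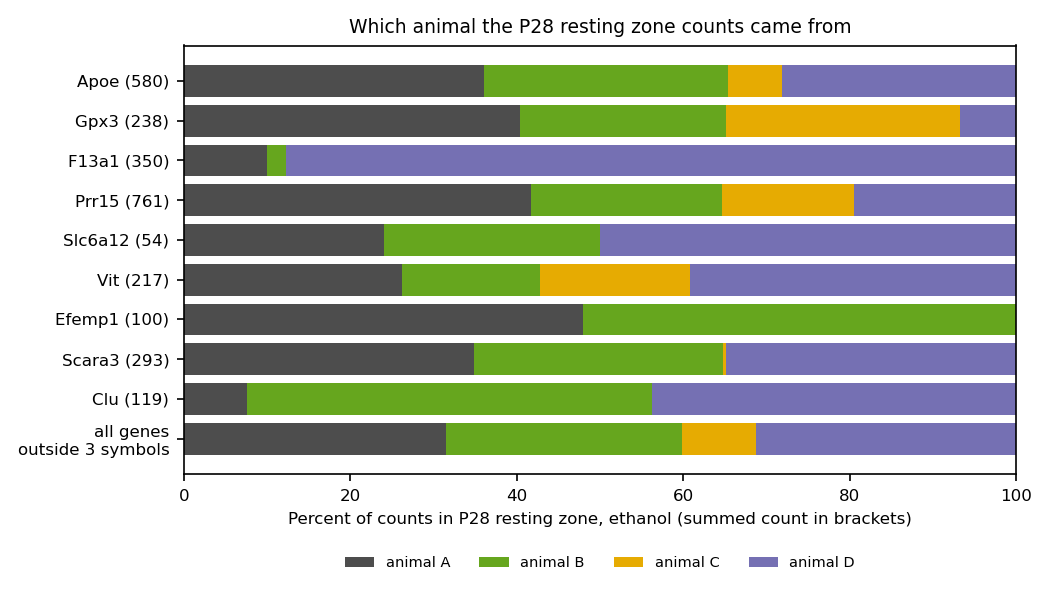
Percent of each gene's counts in the P28 resting zone (ethanol) that came from each of the 4 animals, with the summed count in brackets and the share of all counts outside Rn45s, Lars2 and Glra2 in the lowest bar. Animal D holds 87.7% of the F13a1 counts, and Efemp1 came from animals A and B only.

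Between P2 and P28 the resting zone was compared within a fit that allowed for the 2 sets in which libraries were deposited. Since the genes were named for this gain, the values are again a description. Apoe was at 16.4, 12.7, 5.87 and 8.23 CPM in P2 resting sums of animals A, D, F and G and at 561 ± 92.7 (SD, n = 3) at P28. Apoe was thus present at P2 in all 4 animals, at lower levels. Scara3 was present at P2 as well, at 16.4, 85.4, 25.7 and 63.4 CPM, against 301 ± 92.6 (SD, n = 3) at P28. Efemp1 had 233 and 284 counts in P2 animals D and G and 0 in A and F, and its fitted log2 change was -0.04 ± 1.72.

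F13a1 and Slc6a12 were at 0 counts in all 4 P2 resting sums. Summed over animals and set against a floor of 3 counts, F13a1 was at least 1575-fold and Slc6a12 at least 182-fold higher at P28, and these bounds cover counting error only. Animal D gave 307 of the 328 F13a1 counts and 27 of the 38 Slc6a12 counts at P28. Without animal D, a choice made after seeing the data, the bounds were 168-fold and 88.0-fold. Gpx3 had 0, 3, 5 and 3 counts at P2 and Vit 0, 16, 0 and 6. Clu had 0, 5, 4 and 22 counts at P2 and did not pass the filter on low counts of this fit. The log2 changes were 6.80 ± 1.25 for Gpx3, 6.38 ± 1.44 for Vit, 5.98 ± 0.95 for Apoe, 5.44 ± 0.98 for Prr15 and 2.92 ± 0.93 for Scara3. An adjusted p under 0.05 held for 6 of 8 members and for 0.872% of 3327 genes, which the choice of genes makes uninformative. Without P28 animal D the 6 fell to 3. Perichondrium and fibroblast genes summed to 1581 to 11089 CPM outside the 3 symbols in P2 resting libraries and to 231 to 1233 in P28 ones, and their part in these differences was not tested.

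The P3 animal was left out of the tests. Its resting library had 128 counts of Apoe (68.6 CPM outside the 3 symbols, against 9.25 to 40.5 in the P2 resting libraries that entered), 128 of Scara3 and 100 of Efemp1. It had 0 of Clu, F13a1 and Slc6a12, 1 of Gpx3 and 7 of Vit. Its hypertrophic library held 443 counts of F13a1, 231 of Gpx3 and 53 of Clu (31.98 CPM, against 0 to 5.11 in the P2 hypertrophic libraries that entered).

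In the proliferative and hypertrophic zones age gave no call among the 3 members that passed the filter in each zone. Counts of 0 of 3 are near the shares over all genes given below, and nothing is read from them. The P28 proliferative sums are also those of the rule's contrast. In the proliferative zone 3 members, Gpx3, Vit and Prr15, passed the filter, and 0 of 3 were called, against 0.679% of 4712 genes. Gpx3 had 6.84, 1.04, 0 and 5.22 CPM in P2 proliferative sums of animals A, D, E and G and 49.4, 29.4 and 121 in P28 sums of A, B and D. These ranges did not overlap, and the log2 change of 4.31 ± 1.62 did not pass (edgeR quasi-likelihood, adjusted p = 0.391). Vit was at 0, 2.08, 33.9 and 2.46 CPM at P2 and at 141, 120 and 134 CPM at P28, with a log2 change of 4.14 ± 1.42 (adjusted p = 0.25). Without P2 animal E the adjusted p of Vit was 0.0296, and with DESeq2 that of Gpx3 was 0.0122. In the hypertrophic zone F13a1 had a log2 change of 2.53 ± 0.97 (adjusted p = 0.494), and 0 of 3 members were called, against 0.102% of 1963 genes. At an unadjusted p under 0.05, 265 genes differed with age in the proliferative zone and 103 in the hypertrophic zone.

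At P2 the genes did not act as a group. Against the hypertrophic zone, Scara3 and Apoe were higher in the resting zone while F13a1 and Gpx3 were lower. These 4 of 9 members passed the test, against 3.77% of 6958 genes. The same P2 resting sums stand in the age contrast above, for which the genes were named. Low counts in these sums were thus favoured by the choice, and the calls of lower members are not independent of it. The 4 P2 resting sums of Scara3 had 6, 94, 57 and 354 counts and the hypertrophic sums had 0, so Scara3 was at least 49.1-fold higher (edgeR quasi-likelihood, adjusted p = 0.00236). Apoe had 6, 14, 13 and 46 counts against 0, at least 7.60-fold higher (edgeR, adjusted p = 0.038). Both were higher in 4 of 4 resting sums.

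F13a1 had 5, 0, 33 and 187 counts in P2 hypertrophic sums of animals A, C, D and G and 0 in the resting sums. It was at least 260-fold lower in the resting zone (edgeR quasi-likelihood, adjusted p = 1.12e-06), and it remained called in all 18 alternatives. Among these, the fits without P28 animals or without P2 animals C, E or F keep every P2 animal that has both zones. Gpx3 had 2, 2, 41 and 270 counts in the hypertrophic zone, or 19.0 to 129 CPM, against 0 to 2.72 CPM in the resting zone. The groups did not overlap, and Gpx3 was lower in the resting zone by a log2 change of -6.11 ± 1.51 (edgeR, adjusted p = 0.00371). The Gpx3 call ended without P2 animal D (adjusted p = 0.0675) and without P2 animal G (0.258). The Scara3 call ended without the same animals (0.11 and 0.274). The Apoe call ended without P2 animals A (0.0843), D (0.261) or G (0.506), without P28 animals A (0.0818) or B (0.0838), and without P28 proliferative library 9 (0.0543). It ended as well with DESeq2 (0.0604), with no filter on low counts (0.0769) and with a minimum of 50000 counts outside the 3 symbols (0.165).

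Markers of other cells moved in the same comparison. Of 4 tested perichondrium and fibroblast genes 2 were higher in the P2 resting zone, Dcn by 6.73 ± 1.07 and Col1a2 by 3.35 ± 0.85 (edgeR, adjusted p = 1.32e-07 and 0.00565), and the list's median was 3.72 beside 0.52 over all genes. All 8 listed genes had counts in P2 resting libraries, and their sum was 1581 to 11089 CPM there and 83.8 to 5641 in hypertrophic libraries. Beta-s was lower in the resting zone, with a log2 change of -5.46 ± 1.35 (adjusted p = 0.00394). Their part in the results for the 4 members was not tested.

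The comparison P2 hypertrophic against proliferative shares no sums with the rule, but it is not free of the choice. Its filter on low counts and its estimate of spread used the sums of both ages. Members low at P2 could thus enter through the P28 resting sums. Apoe was at 0 counts in both zones here, and Clu had 2 hypertrophic counts and 1 proliferative count. Of 9 members 1 was called, against 2.31% of 6958 genes, and nothing is read from that count. F13a1 was at 47.4, 0, 81.3 and 89.3 CPM in hypertrophic sums of animals A, C, D and G and at 0, 7.26, 0 and 0 in proliferative sums of A, D, E and G. Hypertrophic levels were higher in A, D and G, the animals with both zones, and animal C, at 0, had no proliferative sum. The log2 change was 5.69 ± 1.39 (edgeR quasi-likelihood, adjusted p = 0.00511). Without P2 animal G the change was 3.98 (adjusted p = 0.458), and without P2 animal D it was 9.35 (0.0102). The call also ended with RLE size factors (0.0791), DESeq2 (0.201) and the other count minimum (0.0903). Gpx3 was at 19.0, 28.8, 101 and 129 CPM against 6.84, 1.04, 0 and 5.22, with no overlap and a log2 change of 4.38 ± 1.47 (adjusted p = 0.0881). Gpx3 passed with DESeq2 (adjusted p = 0.00541) and without the animal block (0.0437). Without P28 animal D the adjusted p of Gpx3 was 0.031 and that of Scara3, which had 0 counts in hypertrophic sums and 0, 6, 0 and 60 in proliferative sums, was 0.0462.

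At P28, where the proliferative sums are those of the rule, F13a1 was also higher in the hypertrophic than in the proliferative zone. F13a1 was at 378, 278 and 306 CPM in hypertrophic sums of animals A, B and D and at 14.1, 33.9 and 0 in proliferative sums. The resting sums were at 68.8, 40.6 and 1193 CPM, so animals A and B lay below and animal D above all hypertrophic sums, and resting against hypertrophic had a log2 change of -0.33 ± 1.23. Against the proliferative zone all 3 animals were higher, with a log2 change of 4.11 ± 1.13 (edgeR quasi-likelihood, adjusted p = 0.0307). It was the 1 member called, against 1.12% of genes. The call ended in 10 of 18 alternatives, among them the fits without P28 animal A (adjusted p = 0.487), B (0.107) or D (0.381), without P2 animal D (0.0689), without P28 proliferative library 9 (0.0764) and without the animal block (0.18). The change was 3.63 to 5.52 in all 18. F13a1 is also made by macrophages and platelets. Of 14 macrophage genes 2 had counts in the P2 hypertrophic libraries that entered, Cd68 with 34 and Mrc1 with 11, while the proliferative ones had 0 of Cd68 and 19 of Mrc1. At P28 the hypertrophic libraries had 8 counts of Mrc1, 3 of Ptprc and 2 of Itgam, with the other 11 genes at 0. The list summed to 0 to 249.6 CPM per P2 hypertrophic library and 0 to 261 per P2 proliferative library, and to 6.54 to 76.5 and 0 to 384 at P28. Pf4, a platelet gene, was at 0 in the hypertrophic libraries of both ages, and Vwf, an endothelial and platelet gene, had 73 counts at P2 and 29 at P28, against 13 and 4 in the proliferative zone. Beta-s was higher in P2 hypertrophic than proliferative sums by a log2 change of 4.47 ± 1.29 (edgeR, adjusted p = 0.0308). The part of such cells in the F13a1 result was not tested.

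Between the P2 resting and proliferative zones 0 of 9 members were called (edgeR), against 0.259% of genes. DESeq2 also called 0, and 288 genes had an unadjusted p under 0.05. Apoe was present in 4 of 4 resting sums and absent from 4 of 4 proliferative sums, at least 12.8-fold higher (adjusted p = 0.0752), and its adjusted p was 0.0324 without P28 animal D. The difference between ages in the resting to proliferative contrast was called for 0 of 9 members, against 0.144% of genes. It contains the P28 resting and proliferative sums of the rule, so it is a description. That interaction had 472 genes with an unadjusted p under 0.05, and DESeq2 called 0 members. Here and between the P2 zones, a count of 0 is near the share over all genes, and nothing is read from it.

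**Figure D3:**
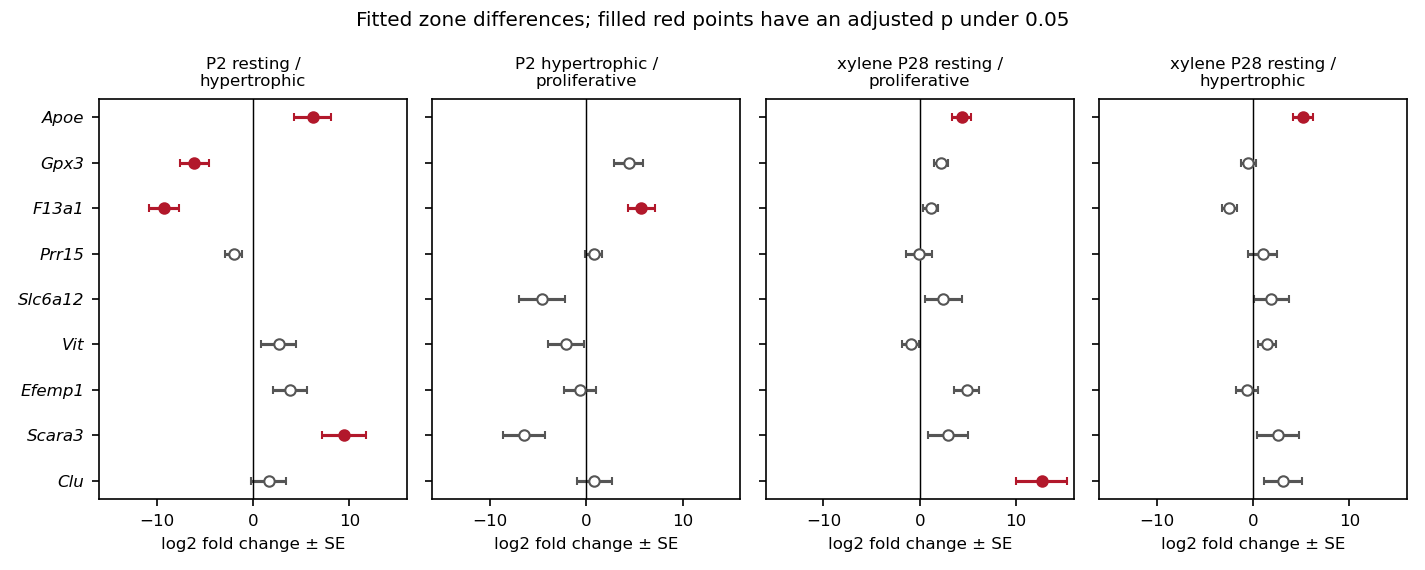
Fitted log2 fold changes ± SE of the 9 genes in 4 zone comparisons, with filled red points for an adjusted p under 0.05 (edgeR quasi-likelihood). At P2 the resting zone is above the hypertrophic zone for Apoe and Scara3 and below it for F13a1 and Gpx3; fitted values against a zone with 0 counts depend on the prior count and are not bounds, and members at 0 in both zones have no point.

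Xylene-fixed P28 sections gave libraries that entered none of the ethanol fits. They came from animals D and E, and it is not stated whether they were in view when the genes were picked. If they were, the calls below are no independent test, and animal D also gave ethanol libraries. Apoe was at 318 and 365 CPM in resting sums of D and E, at 62.9 and 6.29 in proliferative sums and at 33.0 and 3.57 in hypertrophic sums, with no overlap. It was higher in the resting zone by log2 changes of 4.36 ± 1.01 over the proliferative zone (edgeR quasi-likelihood, adjusted p = 0.0238) and 5.23 ± 1.04 over the hypertrophic zone (adjusted p = 0.00106). Clu had 161 and 50 counts in resting sums and 0 in both proliferative sums, at least 187-fold higher (adjusted p = 0.0128). Thus 2 of 9 members were called against the proliferative zone, with 0.34% of 9707 genes, and 1 against the hypertrophic zone, with 1.46% of genes. As the part of these libraries in the choice is unknown, nothing is read from these counts.

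These calls rest on 2 residual degrees of freedom. Without xylene hypertrophic library 3, which shares the fit, the adjusted p against the proliferative zone was 0.375 for Apoe and 0.0637 for Clu. Without that library Apoe against the hypertrophic zone had a log2 change of 7.54 (adjusted p = 0.00144), and Scara3 (0.000159) and F13a1 (0.0346) were called as well. In that library Scara3 had 749 counts, Clu 576 and Gpx3 8535, whereas the other hypertrophic xylene libraries had 0 of Scara3. Without the animal block, 0 members were called in either comparison, and the adjusted p of Apoe was 0.593 and 0.153. With libraries unsummed and the block kept, 0 were called and it was 0.8 and 0.337. With libraries unsummed, leaving out resting library 4 gave Apoe an adjusted p of 1 and 0.314 and Clu one of 0.053, and leaving out resting library 3 gave Apoe 0.307 and 0.0402. DESeq2 gave Clu 0.279.

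The other members followed the ethanol sections in part. Efemp1 was at 19.9 and 88.6 CPM in xylene resting sums against 0.23 and 6.29 in proliferative sums, with a log2 change of 4.88 ± 1.29 (adjusted p = 0.0773). Animal D, without Efemp1 in its ethanol resting library, had 32 counts of it in its xylene library. F13a1 was at 75.7 and 58.6 CPM in the resting zone and at 258 and 611 in the hypertrophic zone, so both animals were lower in the resting zone (log2 change -2.45 ± 0.79, adjusted p = 0.119). Animal D thus had 307 F13a1 counts in its ethanol resting library and 122 in a xylene library with more depth. Vit was higher in proliferative sums (183 and 168 CPM) than in resting sums (113 and 79.5 CPM), with a log2 change of -0.93 ± 0.88. Gpx3 was at 274 and 633 CPM in resting sums and at 112 and 101 in proliferative sums, with a log2 change of 2.21 ± 0.74 (adjusted p = 0.306).

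Prr15 behaved unlike the other members with depth. It had counts in all 64 libraries with over 1000 counts outside the 3 symbols, between 1 and 148, and no other member was found in more than 45. Its count did not grow with depth: the median was 70 in the 24 libraries of 1000 to 50000 such counts, 53 in the 24 of 50000 to 500000 and 22.5 in the 16 deepest. Spearman's rho with depth was -0.51 over these 64 libraries, against 0.43 to 0.75 for the other 8 members, as a description of libraries that share animals and runs. Of 63 genes detected in nearly all libraries, Prr15 had the second lowest value, after Pcsk2 at -0.57. A CPM value of Prr15 was thus lower in deeper libraries, and the P28 resting libraries were shallower than the P2 ones.

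Some libraries of like depth, picked after their depths were seen, are given as values. P28 resting library 8 held 142839 counts outside the 3 symbols and 148 of Prr15, while P2 resting library 1 held 148004 and 8 of Prr15. P28 proliferative library 8 held 114596 and 116 of Prr15. At P28, xylene resting library 3, with 964498 such counts, had 29 of Prr15, in the same range as the 29 of xylene hypertrophic library 1 with 966336. The xylene zones had Prr15 at 18.0 and 69.1 CPM (resting), 17.3 and 75.0 (proliferative) and 21.8 and 8.32 (hypertrophic). The part of depth in the Prr15 differences between ages and between zones was not tested.

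**Figure D4:**
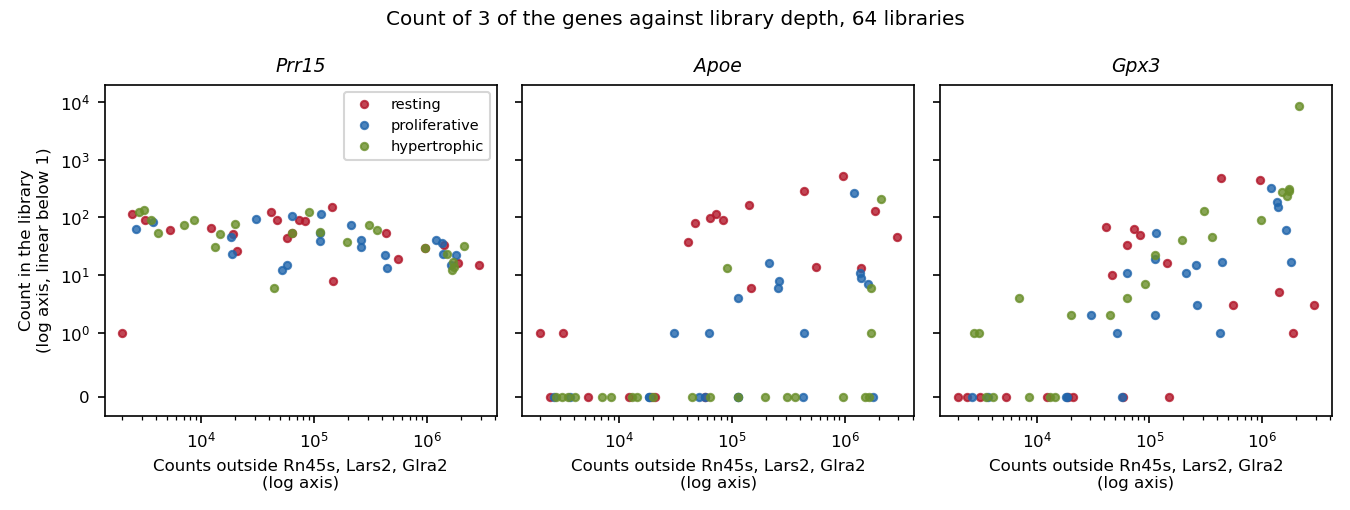
Count of Prr15, Apoe and Gpx3 in each of 64 libraries against the library's counts outside Rn45s, Lars2 and Glra2 (both axes log, the y axis linear below 1), coloured by zone. Prr15 counts lie between 1 and 148 at every depth, while Gpx3 reaches 8535 and Apoe 513 in deep libraries.

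Likeness among the members over the 21 ethanol sums is given as Pearson correlations of log2 CPM without a test, since the genes share libraries and were picked together. Apoe and Scara3 had r = 0.83, Apoe and Clu 0.75, and the neighbours Scara3 and Clu 0.71. Gpx3 and F13a1 had r = 0.69, whereas Gpx3 and Scara3 had 0.09. Slc6a12 and Vit had r = 0.71. Apoe and Vit had 0.68, Gpx3 and Prr15 0.66, Apoe and Slc6a12 0.60, and F13a1 and Clu 0.57. Outside the list, the genes most like the members' mean were Htra1 (r = 0.84), Hhip (0.79), Tgfbr3 (0.79), Col5a3 (0.78) and Itgb3bp (0.77).

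Lists of genes related to the members were followed through the same comparisons. Against the proliferative zone, 3 of 16 tested resting zone markers were higher and 0 lower: Meg3 by 5.04 ± 0.72, Wif1, a Wnt inhibitor, by 6.58 ± 1.72, and Pthlh, which encodes parathyroid hormone-related protein, by 9.42 ± 2.57 (edgeR quasi-likelihood, adjusted p under 0.05). Apart from the members, 0 of 10 lipoprotein and lipid carriers, 0 of 18 peroxide and antioxidant genes, 0 of 8 fibulin and elastic fibre genes, 0 of 4 transglutaminase and coagulation genes, 0 of 1 class A scavenger receptors, 0 of 4 osmolyte transport genes and 0 of 8 von Willebrand A domain matrix genes were called in either direction. Over all genes 0.561% were called in this contrast, and 1.77% against the hypertrophic zone. Counts of 0 in lists this short are near those shares, and nothing is read from them. The median log2 changes of these lists ran from -1.62 for lipid carriers to 0.78 for the scavenger receptor, beside -0.81 over all genes. Against the hypertrophic zone at P28, 1 of 8 elastic fibre genes besides Efemp1 was higher, Fbn1 (fibrillin 1) by 6.56 ± 1.77 (edgeR, adjusted p = 0.019), and 1 of 8 matrix genes of the von Willebrand A list was lower, Matn1 (matrilin 1) with a log2 change of -2.23 ± 0.65 (adjusted p = 0.0372). In xylene sections Matn1 and the collagen VI genes Col6a1, Col6a2 and Col6a3 were lower in the resting than in the hypertrophic zone, with log2 changes of -5.67 ± 1.18, -2.30 ± 0.62, -3.11 ± 0.71 and -3.29 ± 0.68. Col6a3 was also lower than in the xylene proliferative zone (-2.70 ± 0.68, edgeR, adjusted p = 0.0498). At P2, Tgm2, the widely expressed tissue transglutaminase, was lower in the resting than in the hypertrophic zone, with a log2 change of -6.14 ± 1.86 (edgeR, adjusted p = 0.0325). The resting zone markers called at P2 and after xylene were mixed. Against the P2 proliferative zone Gdf10 was lower (-12.3), with Dcn and Meg3 higher. Against the P2 hypertrophic zone Wif1 (-8.63), Gdf10 (-8.05) and Cd200 (-7.32) were lower, with Ucma, Dcn and Meg3 higher. After xylene Cd200 was lower than in the proliferative (-10.4) and hypertrophic zones (-14.0). Foxa2 (-7.74) was lower than in the hypertrophic zone, with Sfrp5, Ucma and Gdf10 higher.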

How the data were processed

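Per the submitters' processing notes, reads were handled with cutadapt, STAR 2.5.2b, Subread and featureCounts 1.5.3 on mm10. Neither an annotation nor a strand setting is named there. The deposited table holds the authors' raw read counts per gene symbol. Its 100 columns were summed to 68 libraries by title (32 libraries had 2 columns). Ethanol libraries of at least 100000 counts (26 of 51) and 12 xylene libraries were summed per animal and zone (21 and 6 sums). Counts were tested with edgeR 4.0.16 (TMM, filterByExpr, robust quasi-likelihood fit, Benjamini-Hochberg over all genes tested, threshold 0.05) in R 4.3.3. Zone fits had the animal as a block (8 residual degrees of freedom, 2 for xylene). Age fits had the deposit set as a covariate (4). The animal labels give the pairing, and deviations of sums of 1 animal correlated at -0.00358 to 0.187 over genes. DESeq2 1.42.0, RLE size factors, other filters, other minimums, and fits without each animal were alternatives. The procedure was tested on simulated data. Members and gene lists were chosen with earlier results of these data known. All members were named, with up to 4 called genes per list and the 5 genes most like the members' mean. Count intervals and floors cover counting error only.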

Additional observations from a re-analysis of the deposited data

Results flagged for a closer look

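In groups of 4 or 5 sums or libraries, the highest and the lowest value were each tested for the gap to the next value (Dixon's test). Of 38 groups 19 were marked, all for the highest value. Chance marks about 1 in 20 groups of normally spread values. Many of these groups hold zeros in their other samples, so that rate does not hold for them. Among P2 ethanol sums (TMM CPM), animal D stood out for Efemp1 in the hypertrophic (19.7) and proliferative zones (28.02), for F13a1 in the proliferative zone (7.26) and for Vit in the resting (14.5) and hypertrophic zones (2.46). Animal A stood out for Clu (6.84) and Slc6a12 (47.9) in the proliferative zone, animal E for Vit there (33.9), and animal C for Prr15 in the hypertrophic zone (1110).

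Among xylene libraries (CPM of counts outside the 3 symbols), hypertrophic library 3, the library with bone genes, stood out for Gpx3 (4054), Scara3 (356), Clu (274) and Apoe (98.8). Hypertrophic library 5 stood out for Efemp1 (263) and hypertrophic library 2 for Prr15 (167). Proliferative library 2 stood out for Apoe (222), library 4 for Efemp1 (8.79), library 5 for Prr15 (1699) and library 1 for Vit (510). The Apoe value of proliferative library 2 lies below both xylene resting libraries, at 532 and 648.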

How the results depend on the processing

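The counts of called members moved with the processing. Leaving out 1 animal at a time gave 0 to 4 members for P28 resting against proliferative (3 with all animals), 0 to 1 for resting against hypertrophic (1) and 0 to 1 for hypertrophic against proliferative (1). At P2 it gave 0 to 1 for resting against proliferative (0), 1 to 4 for resting against hypertrophic (4) and 0 to 3 for hypertrophic against proliferative (1). It gave 3 to 7 for age in the resting zone (6) and 0 to 1 in the proliferative zone (0). For xylene, where sums gave 2 against the proliferative and 1 against the hypertrophic zone, unsummed libraries gave 0 in both, and leaving out a resting library from the unsummed fit gave 0 to 1 in both. Without the animal block, a fit that ignores the pairing, 0 members were called in the 3 P28 ethanol comparisons and in both xylene comparisons, 2 in P2 hypertrophic against proliferative and 1 in the age difference. With each label its own animal the block gave 2 in P28 resting against hypertrophic and 2 in hypertrophic against proliferative. In P28 resting against proliferative, no filter on low counts and a minimum of 50000 counts outside the 3 symbols gave 1 each. In P28 resting against hypertrophic, RLE gave 2 and DESeq2 gave 3. In P28 hypertrophic against proliferative, RLE, DESeq2, no filter and the other minimum gave 0. In P2 hypertrophic against proliferative, RLE and the other minimum gave 0. DESeq2 gave 1 for age in the proliferative zone. Alternatives chosen after seeing the data were fits without P28 proliferative library 9 (0 in P28 hypertrophic against proliferative), without xylene hypertrophic library 3 (0 against the proliferative and 3 against the hypertrophic zone) and without 2 hypertrophic libraries low outside the 3 symbols.

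Of 1125 values of the 72 log2 changes beyond 1 SE, 1029 kept direction and side of the threshold, 67 lost the call, 25 gained it and 4 changed sign. Those were Apoe in the age difference (0.25 with DESeq2, 0.37 without library 9), F13a1 in P2 resting against proliferative (-4.33 to 0.028 when 1 animal is left out, the highest without animal D) and Vit in P2 hypertrophic against proliferative (-4.15 to 0.26, the highest without animal G). The other 21 changes lay within 1 SE of 0, and 39 of their 330 values had the other sign. The cause of these shifts was not tested. Of 8 ethanol P28 resting libraries 5 were below the minimum, which limits what low members can show there.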
